A study of Mus musculus with 6 samples.

Results

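RUNX1 binding was described at 10 genes that carry the gonadotropin signal inside granulosa cells, the somatic cells around the oocyte of an ovarian follicle. The genes are the receptors Fshr and Lhcgr, the protein kinase A subunits Prkar1a and Prkar2b, the phosphodiesterases Pde4b, Pde4d and Pde10a, the transcription factors Creb1 and Crem, and the G-protein regulator Rgs2. They were taken by name, with no threshold on the binding values, but with earlier results of these data known. They are 10 of 21900 protein-coding genes in the RefSeq table of the GRCm38.p6 mouse genome. A peak of RUNX1 chromatin immunoprecipitation sequencing (ChIP-seq) was assigned to a gene when its summit lay inside the gene or within 50 kb of either end. By this rule 109 of the 51515 peaks in 4 lists belonged to the 10 genes.

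Per the labels, the granulosa cells came from CBA x C57BL/6 F1 mice at an age of 21 days. The stated treatment is 5 IU of equine chorionic gonadotropin (eCG), which makes follicles grow, and 46 h later 5 IU of human chorionic gonadotropin (hCG), which acts through the receptor for luteinising hormone. The series has 2 RUNX1 libraries of pre-ovulatory cells at 0 h, 2 libraries of peri-ovulatory cells 6 h after hCG, and 1 pooled input for each time point. Every library carries the same treatment text, which speaks of the 6 h collection, and only sample names and time labels set the 0 h group apart. Whether the 0 h mice received hCG is not given apart from that label. No label says whether replicates came from separate mice or pools, so the spread between them may be technical.

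Follicle-stimulating hormone and luteinising hormone bind membrane receptors coupled to the stimulatory G protein, and adenylyl cyclases then make cAMP. Cyclic AMP releases the catalytic subunits of protein kinase A from its regulatory subunits, and the kinase phosphorylates CREB at cAMP response elements (CREs). Phosphodiesterases break cAMP down again, and the short ICER products of Crem repress the same elements. In the ovary this pathway drives follicle growth under the first hormone and ovulation under the second. RUNX1 is a DNA-binding factor that is itself induced in granulosa cells by the ovulatory stimulus.

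The peak lists differed widely in length. They held 948 and 3135 peaks at 0 h and 18761 and 28671 peaks at 6 h, all called separately for each library with a −log10 p of at least 9.01. The number of sequenced reads is not given in the sources used here. The read pileup at each summit was recovered from the fold enrichment and the p-value, which was possible for at least 99.13% of each list. No such peak had fewer than 20 and 19 reads at 0 h or 19 and 17 reads at 6 h. The most frequent background solved from the same peaks was 2.77 and 2.65 reads at 0 h and 2.76 and 2.13 at 6 h. A site missing from a list was below a calling limit, which is not the same as unbound. Fold enrichment is the authors' value, and it ranks sites within a list but is not on a common scale across lists.

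At 0 h the windows of the 10 genes held 2 peaks in replicate 1 and 9 in replicate 2. At 6 h they held 35 and 63. Both 6 h libraries lay above both 0 h libraries, with means of 5.50 ± 4.95 and 49 ± 19.8 peaks (SD, n = 2 each), a ratio of 8.91. On the log2 scale the difference was 3.47 (p = 0.333 by a two-sided exact permutation of the libraries, n = 2 each), and 0.333 is the smallest p that 2 libraries against 2 can give. As a share of its list, 0 h replicate 1 had 0.211% of peaks in these windows (exact 95% interval 0.0256 to 0.760) and 0 h replicate 2 had 0.287% (0.131 to 0.544). The shares at 6 h were 0.187% (0.130 to 0.259) for replicate 1 and 0.220% (0.169 to 0.281) for replicate 2. With the 50 kb limit the time points overlapped in this share, and the difference in means, −0.0459 percentage points, was smaller than the 0 h SD of 0.0538 (two-sided exact permutation p = 0.667). The overlap was lost in other settings, where every 6 h share used lay below every 0 h share used. The difference was then −0.0906 percentage points with a window of 10 kb and −0.1216 with 100 kb. It was −0.0482 when only peaks whose −log10 q reached 20 were kept. In each of these, the exact permutation p was 0.333, the smallest possible. The overlap was also lost without 0 h replicate 1 (−0.0839) and without 6 h replicate 2 (−0.0625), where a time point had a single library. With 948 peaks per library this difference turned to 0.0527 percentage points (exact permutation p = 1), and the windows held 2 and 3 peaks at 0 h against 3 and 3 at 6 h. The windows together cover 3.85 Mb. They held 0.520 and 2.34 peaks per Mb at 0 h and 9.10 and 16.4 per Mb at 6 h, beside 0.507, 1.76, 10.4 and 15.5 per Mb over the windows of all protein-coding genes. The densities at the 10 genes thus lay near those around coding genes at large, in every library.

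**Figure D1:**
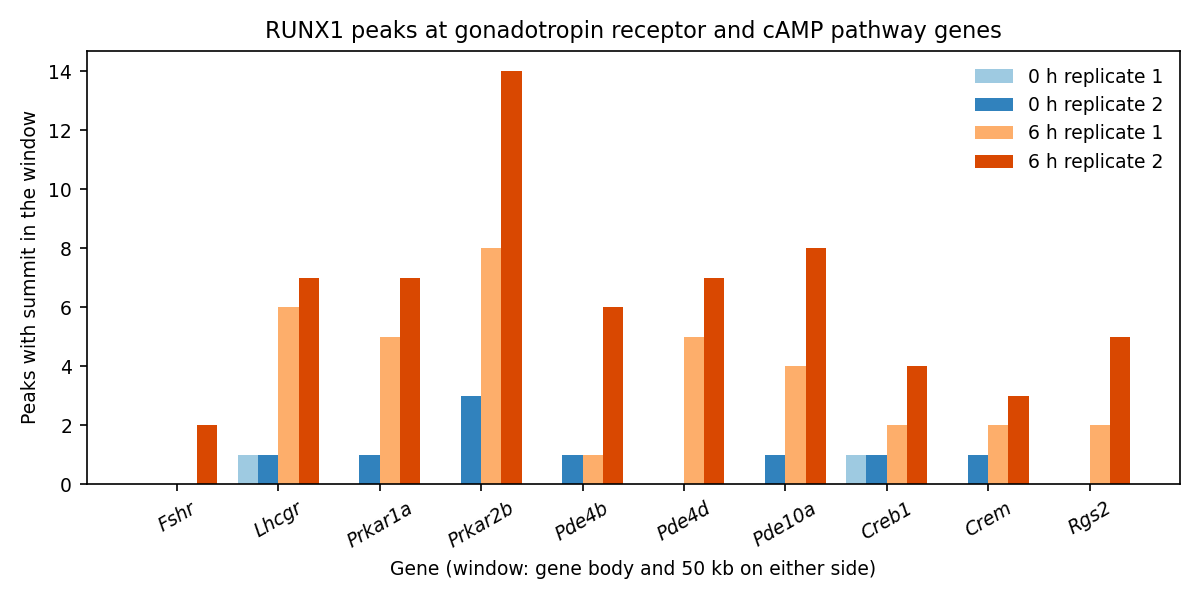
Number of RUNX1 peaks (vertical axis) with the summit in the gene or within 50 kb of it, for each gene (horizontal axis), with 1 bar for each of the 2 libraries at 0 h (blue) and at 6 h (orange). Prkar2b had the highest count with 14 peaks in 6 h replicate 2, and Lhcgr and Creb1 were the genes with a peak in both 0 h libraries.

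Overlapping peaks were merged, and a region counts as replicated where both libraries of a time point called it. At 0 h, 2 of the 10 genes, Lhcgr and Creb1, had such a region, against a background of 8.75% of protein-coding genes. At 6 h 9 of 10 had one, and the background was 68.8%. The exception was Fshr. By gene length the 6 h background was 66.7% for genes under 50 kb (Prkar1a and Rgs2, both with a region), 78.7% for genes of 50 to 200 kb (Lhcgr, Prkar2b, Creb1 and Crem, all with a region) and 66.1% for genes over 200 kb (Fshr, Pde4b, Pde4d and Pde10a, 3 of 4 with a region). The 0 h count rests on the shorter list. Without 0 h replicate 1, 7 of 10 genes had a peak at 0 h, namely Lhcgr, Prkar1a, Prkar2b, Pde4b, Pde10a, Creb1 and Crem, beside 28.2% of protein-coding genes in that library and 28.6% with a peak in either 0 h library. With a −log10 q of at least 20 Lhcgr alone was left at 0 h, beside 3.86% of protein-coding genes. Without 6 h replicate 1, Fshr too had a peak at 6 h, beside 76.1% of protein-coding genes, and the windows held 63 peaks. With the 948 most significant peaks of each library, 2 genes had a replicated region at 0 h, Lhcgr and Creb1, beside 6.41% of protein-coding genes. At 6 h it was 3 genes, Lhcgr, Crem and Rgs2, beside 6.85%.

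Of the receptors, Lhcgr had a site called in all 4 libraries that stood above percentile 98 of fold in both 6 h lists, and Fshr had no replicated site. Lhcgr is the receptor for luteinising hormone and hCG (NCBI gene 16867, chromosome 17, 88716384 to 88792059, minus strand). Its strongest region lay inside the gene at chr17:88755248-88757171, 35981 bp downstream of the annotated start. Exons and introns were not told apart here. Enrichment there was 8.43-fold and 9.42-fold in the 0 h libraries, from 50 and 54 reads at the summit. In the 6 h libraries it was 36.5-fold and 46.6-fold, from 182 and 219 reads. All 4 libraries called it, and their summits lay between 88756002 and 88756039. Within the lists it stood at percentiles 60.4 and 79.1 at 0 h, where it ranked 376th of 948 and 655th of 3135 peaks. At 6 h it stood at percentiles 99.1 and 98.5, where it ranked 162nd of 18761 and 424th of 28671 peaks. Percentiles depend on the length of the list, so those of 0 h and 6 h are not comparable.

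Lhcgr had 5 further replicated regions at 6 h and no further peak at 0 h. The strongest of these, at chr17:88822915-88823541, lay 31106 bp upstream of the gene with a fold of 20.7 and 35.5, at percentiles 93.5 and 96.4. A region at chr17:88839955-88840589 had a fold of 10.2 and 13.9 and lay 48202 bp upstream, the closest to the edge of any window. The others had a fold between 5.78 and 12.3 and lay at chr17:88764800-88765080, chr17:88788871-88789232 and chr17:88805192-88805488. Lhcgr was the nearest protein-coding gene to all 6.

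The annotated start of Lhcgr itself had no replicated region. A peak of 6 h replicate 2 alone, at chr17:88791693-88791986, had its summit 200 bp downstream of it, with a fold of 5.36 at percentile 3.84 of that list. The sequences before the starts of both receptor genes are shown because neither carried a replicated region (RefSeq, GRCm38.p6, 5′ to 3′ on the gene's strand). Capitals mark the RUNX core TGTGGT or TGCGGT, the CRE TGACGTCA or its shorter core TGACG, each on either strand. The Lhcgr stretch, chr17:88792060-88792264, holds 1 RUNX core at position −222 from the start, read on the other strand, and the Fshr stretch, chr17:89200676-89200925, holds none of these letters.
Lhcgr: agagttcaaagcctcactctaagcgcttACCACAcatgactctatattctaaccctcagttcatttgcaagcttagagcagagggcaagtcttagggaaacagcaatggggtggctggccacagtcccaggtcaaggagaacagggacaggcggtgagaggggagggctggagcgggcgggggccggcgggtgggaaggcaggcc
Fshr: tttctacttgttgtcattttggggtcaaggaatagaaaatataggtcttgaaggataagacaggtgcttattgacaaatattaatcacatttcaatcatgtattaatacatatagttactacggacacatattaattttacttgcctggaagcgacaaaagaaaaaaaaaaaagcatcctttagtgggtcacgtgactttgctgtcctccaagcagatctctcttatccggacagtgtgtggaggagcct

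Fshr, the receptor for follicle-stimulating hormone (NCBI gene 14309, chromosome 17, 88984952 to 89200675, minus strand), had no peak in either 0 h library or in 6 h replicate 1. In 6 h replicate 2 it had 2 peaks, both inside the gene. The one at chr17:89177797-89178138, 22699 bp downstream of the start, had a fold of 14.4 from 67 reads, in percentile 70. The one at chr17:89189643-89190310 had a fold of 7.37 from 43 reads, at percentile 19.1. The replicated 6 h region closest to Fshr lay 92560 bp outside the gene, at chr17:88892107-88893354, between the receptor genes, with a fold of 16.8 and 41.4. At 6 h the Lhcgr window of 176 kb thus held 6 replicated regions and the Fshr window of 316 kb held 0.

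The genes for the regulatory subunits of protein kinase A had 12 replicated regions at 6 h and none at 0 h, 4 at Prkar1a and 8 at Prkar2b. Prkar1a encodes the type I alpha subunit (NCBI gene 19084, chromosome 11, 109649023 to 109669663, plus strand). Its own region, chr11:109650766-109651714, covered 3 of its 6 annotated starts, had a fold of 21.3 and 19.6 at 6 h from 123 and 104 reads, and was called in neither 0 h library. It stood at percentiles 94.1 and 84.1. The summits lay at 109650998 and 109650975, just past the start at 109650949. A full CRE began at position −49 from that start and lay 72 bp from the summit of 6 h replicate 2 (94 bp in replicate 1). The bases around it, chr11:109650889-109650918, are shown because they were the only full CRE found at a member's start.
Prkar1a CRE: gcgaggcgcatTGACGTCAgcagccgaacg

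The other replicated regions in the Prkar1a window were inside its neighbours. The strongest by percentile, chr11:109609531-109612114, was 38947 bp upstream and inside Wipi1. It joined several summits, with a fold of up to 18 and 24.6 at 6 h and 4.99 in 0 h replicate 2, at percentile 7.35 of that list. Its highest summits in the 6 h libraries lay at different places, 109611311 and 109610076. A region at chr11:109671803-109672200 was 2335 bp past the end of Prkar1a and inside Fam20a, with a fold of 8.30 and 14.3. The last was also inside Fam20a, 36555 bp from Prkar1a, with a fold of 7.77 and 10.2.

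Prkar2b encodes the type II beta subunit, a classic product of FSH-stimulated granulosa cells (NCBI gene 19088, chromosome 12, 31958450 to 32061648, minus strand). Its window had 3 peaks in 0 h replicate 2, 8 in 6 h replicate 1 and 14 in 6 h replicate 2, the highest count of the 10 genes in each of these libraries, and none in 0 h replicate 1. The strongest region, chr12:31949156-31949723, had a fold of 7.94 in 0 h replicate 2 and of 27.4 and 36.7 at 6 h, from 28, 102 and 114 reads. The 3 summits lay between 31949496 and 31949513. It was 8954 bp past the 3′ end of Prkar2b, inside the neighbouring gene Hbp1. A second region beside it, chr12:31949815-31950959, had a fold of 8.50 in 0 h replicate 2 and 17.6 and 16.6 at 6 h.

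Inside Prkar2b the strongest region was chr12:31997474-31998229, 62930 bp downstream of a start, with a fold of 11.7 and 19.5 at 6 h and no 0 h peak. Both annotated starts had replicated 6 h regions of low rank. The region chr12:32060608-32061187 had a fold of 8.76 and 6.17 at 6 h and 6.15 in 0 h replicate 2, and chr12:32061270-32061589 had 9.10 and 6.70 and no 0 h peak. In both, the higher fold came from 6 h replicate 1, at percentiles 51.4 and 55.2, and 6 h replicate 2 ranked them at 8.53 and 12.8. No RUNX core and no CRE letters were found in the windows around these starts (250 bp before to 50 bp after).

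Among the phosphodiesterases, Pde10a had a strong site at a start of the gene, Pde4d had sites of middle rank that were called at 6 h alone, and Pde4b had most of its peaks in a single library. Pde10a hydrolyses both cAMP and cGMP (NCBI gene 23984, chromosome 17, 8525187 to 8986648, plus strand). Its region chr17:8800280-8802187 had a fold of 6.84 in 0 h replicate 2 from 24 reads, and of 21.0 and 35.7 at 6 h from 84 and 119 reads. No peak was called there in 0 h replicate 1. The summits were at 8801389, 8801390 and 8801389, at position −356 from the annotated start at 8801745. At 6 h the region stood at percentiles 93.8 and 96.4 and at 0 h at percentile 40.0.

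The 250 bases before that start are shown because they lie within the region. They hold a RUNX core at position −239, which is 118 to 120 bp from the summits, and a further core lies at 41 after the start. The summits themselves are outside the stretch (chr17:8801495-8801744, plus strand, RefSeq GRCm38.p6, capitals as above).
Pde10a: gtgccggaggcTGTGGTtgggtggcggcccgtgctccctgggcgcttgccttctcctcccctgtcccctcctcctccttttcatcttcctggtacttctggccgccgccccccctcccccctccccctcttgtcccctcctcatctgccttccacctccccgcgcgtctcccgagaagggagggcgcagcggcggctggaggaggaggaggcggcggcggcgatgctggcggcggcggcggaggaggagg

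Upstream of and just inside the 5′ end of the annotated Pde10a gene, 3 further regions were replicated at 6 h, and none of them had a 0 h peak. The strongest, chr17:8524174-8525417, had its highest summit 221 bp outside the gene and a fold of 9.28 and 21.4. The highest summits of the libraries lay at different places in it, 8524537 and 8524966. The region chr17:8508285-8508773, 16613 bp upstream of the gene, had a fold of 6.02 and 13.2. The region chr17:8525986-8526520, 955 bp inside the gene, had a fold of 5.85 and 8.94.

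Pde4d, which encodes the cAMP-specific phosphodiesterase 4D (NCBI gene 238871, chromosome 13, 108654177 to 109955969, plus strand), is the longest of the genes at 1300 kb. It had no peak in either 0 h library, 5 in 6 h replicate 1 and 7 in 6 h replicate 2, or 3.57 and 4.99 per Mb of window. Both were below the densities over all coding windows in the same libraries. All its peaks lay inside the gene. The strongest of the 4 replicated regions, chr13:109822317-109822780, was enriched 10.1-fold and 22.0-fold, in percentiles 63.2 and 87.5, 1168436 bp downstream of the annotated start. The others had a fold of 9.02 to 10.8 in replicate 1 and 11.5 to 14.6 in replicate 2.

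Pde4b, which encodes the related phosphodiesterase 4B (NCBI gene 18578, chromosome 4, 102087332 to 102607275, plus strand), had 6 peaks in 6 h replicate 2 and 1 in 6 h replicate 1. At 0 h it had 1 peak, in replicate 2. The replicated region, chr4:102635443-102636323, had a fold of 5.67 and 12.9 and lay 28869 bp past the 3′ end of the gene. The 0 h peak lay inside the gene at chr4:102531788-102532044 with a fold of 7.94, and was called again in 6 h replicate 2 with 14.0 but not in 6 h replicate 1. A start of the gene, at 102570060, was covered by a peak of 6 h replicate 2 alone, with a fold of 11.8 from 36 reads. With the window of 10 kb no replicated region was left at Pde4b.

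The CREB family genes were bound next to an end of the gene at both time points, Creb1 in all 4 libraries and Crem in 3. Creb1 encodes the factor that protein kinase A phosphorylates (NCBI gene 12912, chromosome 1, 64532794 to 64604548, plus strand). Its region chr1:64531980-64533247 covered the annotated start at 64532804. The fold was 7.69 and 14.5 at 0 h, from 28 and 52 reads, and 17.5 and 27.7 at 6 h, from 87 and 130 reads. The 4 summits lay between 64532675 and 64532826. In 0 h replicate 2 this was 132nd of 3135 peaks, at percentile 95.8, the highest rank of any of the 10 genes in that library. In 0 h replicate 1 it stood at percentile 50, and at 6 h at 89.6 and 92.7.

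The bases before the start, chr1:64532554-64532793 on the plus strand, are shown because this was the only start among the 10 genes with a peak called in all libraries. They hold neither a RUNX core nor CRE letters, on either strand, and 67.1% of them are G or C.
Creb1: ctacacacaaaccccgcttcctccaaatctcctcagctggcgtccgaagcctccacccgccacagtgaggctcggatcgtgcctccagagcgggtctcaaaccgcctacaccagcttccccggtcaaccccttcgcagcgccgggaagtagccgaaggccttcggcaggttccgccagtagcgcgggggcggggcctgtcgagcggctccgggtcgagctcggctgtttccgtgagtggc

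The second replicated region in the Creb1 window was weaker and was enriched 6.09-fold and 10.8-fold at 6 h. It lay 12829 bp past the end of Creb1, inside Mettl21a, at chr1:64616935-64617899.

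Crem encodes activators and, from an internal start, the ICER repressors (NCBI gene 12916, chromosome 18, 3266354 to 3337773). Its region at 3336721 to 3338016 had the highest summits 279 bp inside an end of the gene. The fold was 7.88 in 0 h replicate 2 from 45 reads, and 31.1 and 36.4 at 6 h from 180 and 216 reads. No peak was called there in 0 h replicate 1. It ranked 314th of 18761 and 965th of 28671 peaks at 6 h, and at 0 h it stood at percentile 61.1. The summits lay between 3337478 and 3337494. The other replicated region of the window, 45334 bp away and inside Cul2, was among the weakest, with a fold of 3.65 and 7.49.

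Rgs2 encodes a small protein that speeds up the switching-off of G proteins (NCBI gene 19735, chromosome 1, 143999338 to 144004149, minus strand). It had no peak in either 0 h library, 2 peaks in 6 h replicate 1 and 5 in 6 h replicate 2, and all lay in the gene or at most 3657 bp from it. The stronger replicated region, chr1:144006331-144007180, was 2584 bp upstream of the start. Its fold was 19.0 and 28.4 from 186 and 221 reads, the highest pileups of any of the 10 genes in both 6 h libraries, and percentiles of 91.8 and 93.0. The region at the start, chr1:144003883-144004930, had a fold of 16.0 and 13.0 from 131 and 93 reads, at percentiles 87.1 and 63.8. Its summits, 144004134 and 144004176, were on either side of the annotated start at 144004149. Among regions of the 10 genes with no 0 h peak, only the Lhcgr site at chr17:88822915-88823541 had a higher mean percentile than the Rgs2 upstream region.

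The bases before the Rgs2 start, chr1:144004150-144004399 on the minus strand, are shown as the start of a gene with peaks called at 6 h and none called at 0 h. They hold the shorter CRE core at positions −185 and −67, the first on the other strand. A RUNX core lies 7 bp after the start, 6 and 36 bp from the summits, and is given with its flanks (chr1:144004125-144004154).
Rgs2: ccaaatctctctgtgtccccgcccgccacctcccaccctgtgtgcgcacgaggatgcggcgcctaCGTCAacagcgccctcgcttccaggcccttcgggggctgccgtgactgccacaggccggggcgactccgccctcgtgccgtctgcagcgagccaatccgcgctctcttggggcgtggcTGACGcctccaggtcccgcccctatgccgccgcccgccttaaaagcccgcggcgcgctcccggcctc
Rgs2 RUNX core: gcctcaaacagcTGCGGTggccgcgggagt

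**Figure D2:**
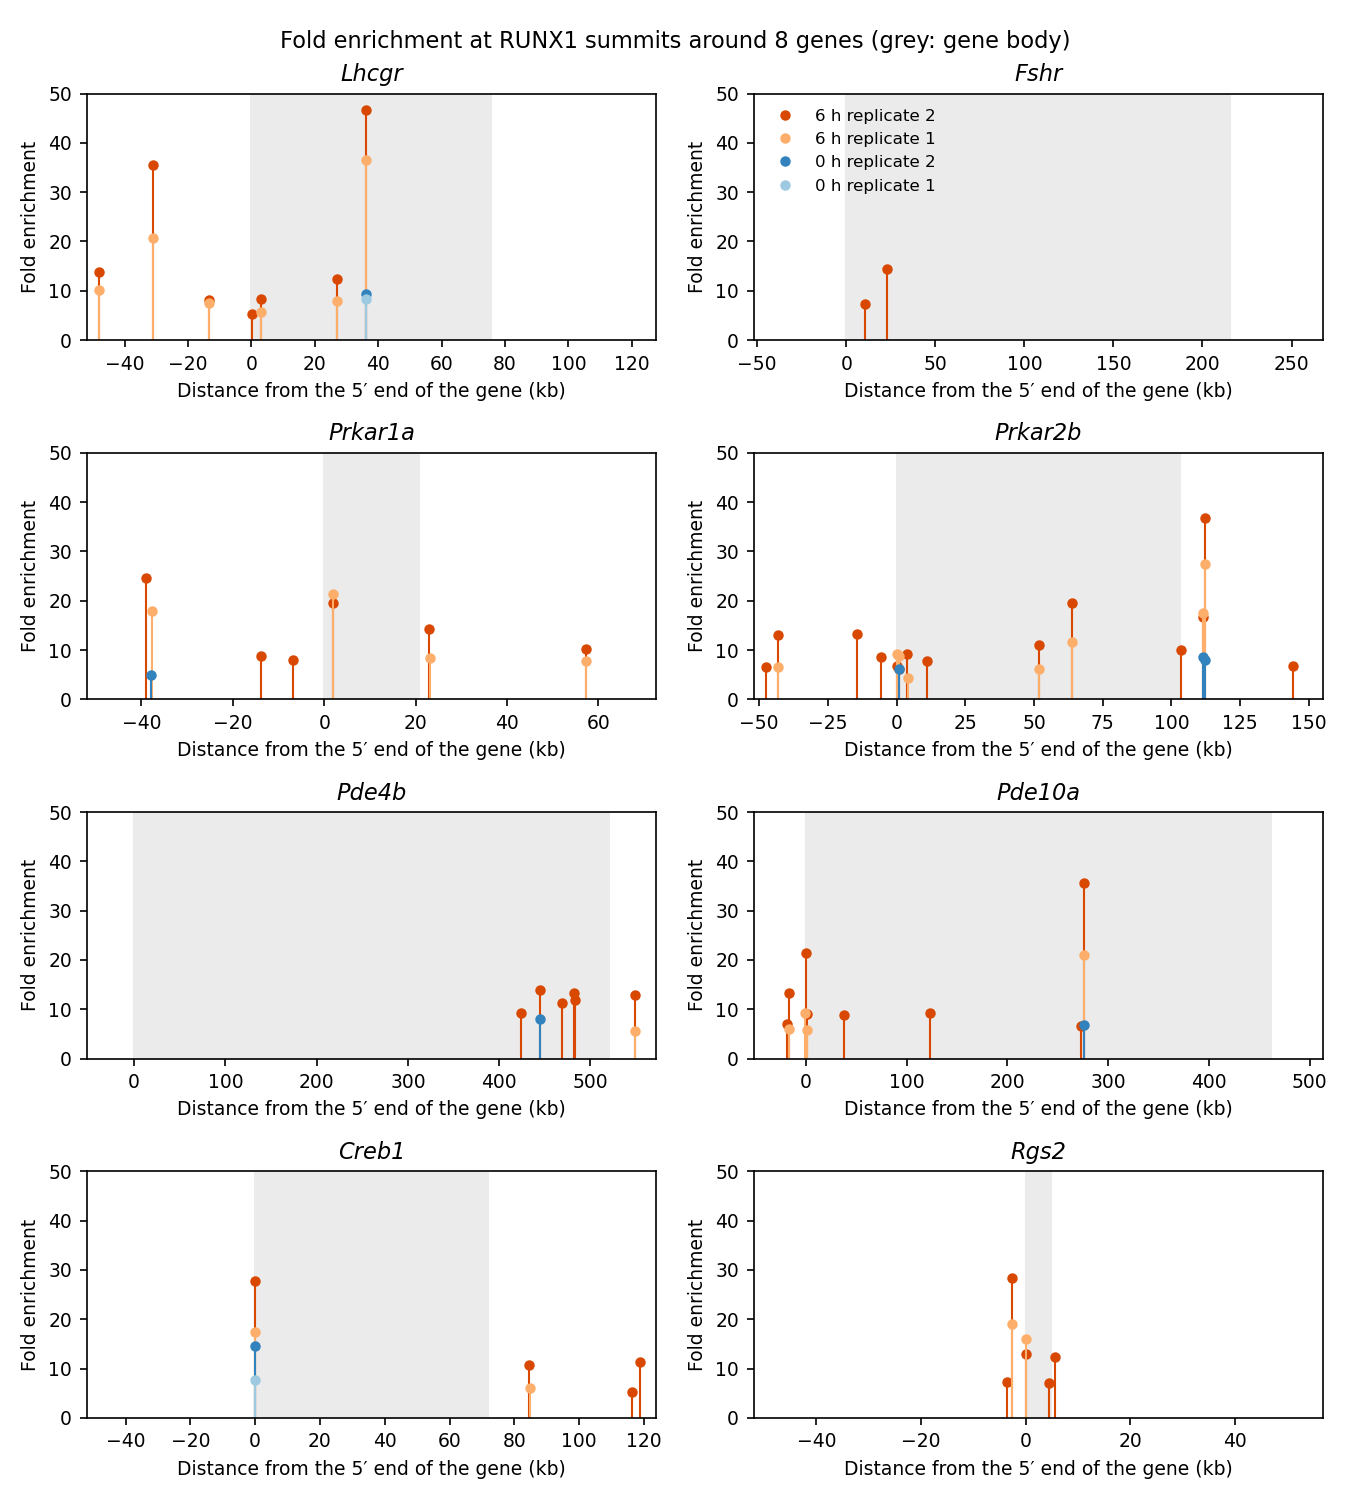
Fold enrichment at the summits of RUNX1 peaks (vertical axis) against distance in kb from the 5′ end of the gene (horizontal axis), for 8 of the 10 genes (without Pde4d and Crem), with 1 point per region and library (its highest peak) and the gene body in grey. Lhcgr reaches 46.6 inside the gene, Creb1 has points of all 4 libraries at its 5′ end, and Fshr has points of 6 h replicate 2 only.

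Across the 10 genes, the peaks of the 4 libraries merged into 62 regions. Of these, 33 were replicated at 6 h and 29 were called in a single 6 h library, in each case replicate 2, which had the longer list. In the whole list of 6 h replicate 2, 17433 of 28671 peaks lay in replicated regions. All 9 regions with a 0 h peak also had a 6 h peak, so no site of these genes was called at 0 h alone. The same share over all 0 h regions is not given here, and the 6 h lists were much longer. This overlap is therefore not taken as particular to the 10 genes. Of the 33 replicated regions, 16 had the leading summit inside one of the 10 genes, and 26 had one of them as the gene they were in or nearest to. The other 7 were nearer to or inside a neighbour, so their link to the 10 genes is by distance only. The single-library regions had a median percentile of 30.7 in their list.

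Of the 33 replicated 6 h regions, 8 had a 0 h peak, or 24.2% (exact 95% CI 11.1 to 42.3), beside 16.5% of all replicated 6 h regions. Again 8 of the 33 had a mean percentile of fold above 90, beside 12% of all regions. Of those 8, 6 had a 0 h peak, and the exceptions were the upstream regions of Lhcgr and Rgs2. In all regions above that percentile the share was 50.6% (95% CI 48.4 to 52.8), which lies inside the interval for the 10 genes, 34.9 to 96.8. The median percentile was 93.1 for the 8 regions with a 0 h peak and 50.7 for the 25 without one. Over all replicated regions of the data set these medians were 84.2 and 54.4. The median over all 33 regions was 58.1, and 59.1 for all 17190 replicated regions. The ranks of these sites thus had nearly the same median as those of all sites.

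**Figure D3:**
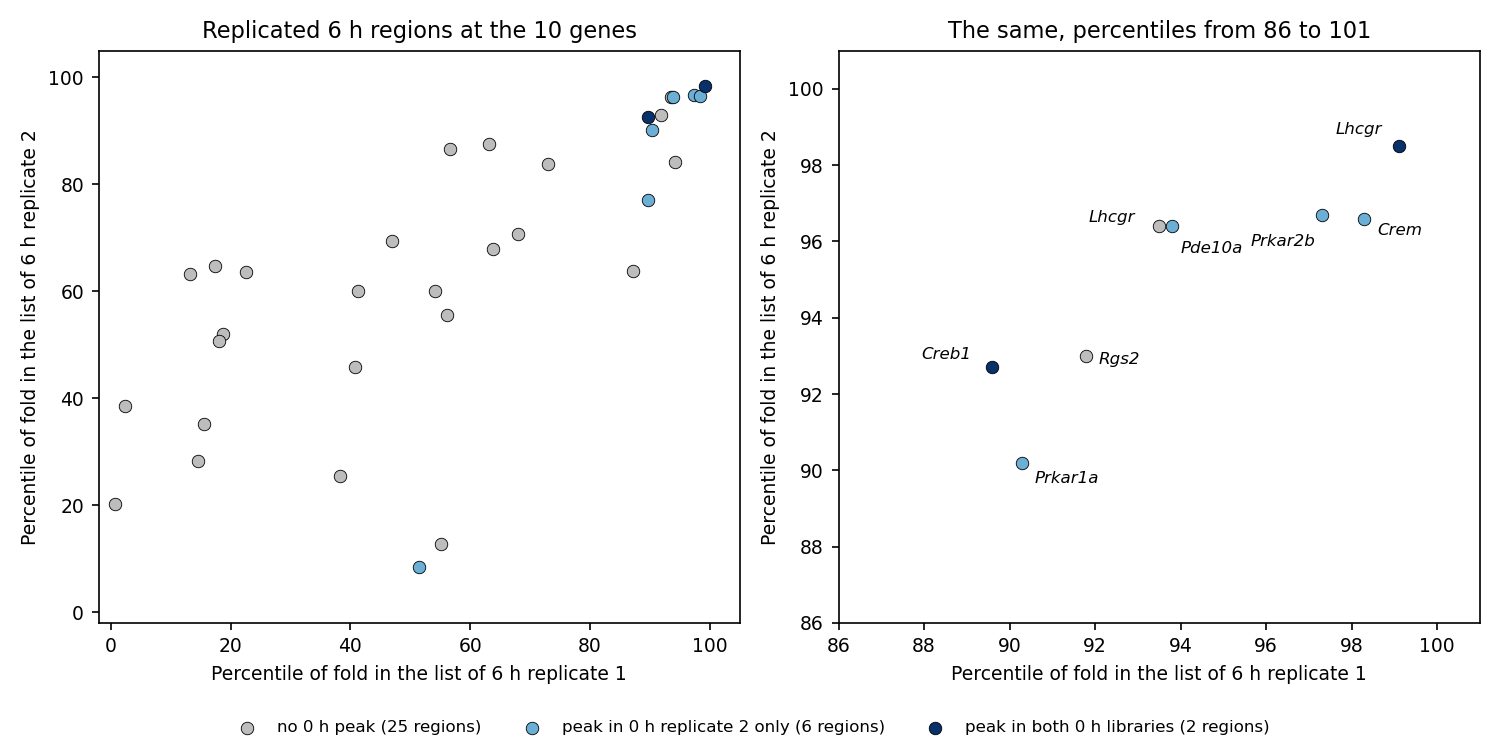
Percentile of fold of the 33 replicated 6 h regions in the list of 6 h replicate 1 (horizontal axis) and of 6 h replicate 2 (vertical axis), whole range (left) and the upper corner (right), coloured by the 0 h libraries that also called the region. Named points have a mean percentile above 90, and 6 of those 8 had a 0 h peak.

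The summits of the 6 h replicates lay a median of 38 bp apart in the 33 regions and 32 bp apart in all replicated regions. Where 0 h replicate 2 had a peak, its summit was a median of 18 bp from that of 6 h replicate 2 (8 regions, 0 to 1090 bp). The largest distance was in the Wipi1 region, which joined several summits. The regions were a median of 635 bp wide, beside 611 bp for all replicated regions.

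Promoter windows of 300 bp (250 before and 50 after a start) were listed for 9 of the 10 genes. At 0 h a replicated region touched a window of 1 of the 9, Creb1, beside 1.43% of 17492 protein-coding genes with a window. At 6 h it did so in 5, Creb1, Prkar1a, Prkar2b, Pde10a and Rgs2, beside 37.9%. Of their 19 windows, 8 were touched at 6 h. A RUNX core was found in 3 of those 8 and in 4 of the other 11, and 21.6% of the 21238 windows of coding genes held one (TGTGGT in 15%, TGCGGT in 7.43%, both strands). A full CRE was found in 2 overlapping windows of Prkar1a, which share the same 8 bases, and in 2.24% of all windows. The shorter core TGACG, which the full CRE contains, was found in 5 of the 19 windows and in 23.6% of all. The NR5A letters AAGGTCA and the AP-1 letters TGANTCA were found in none of the 19 and in 4.08% and 6.99% of all. These are matches of letters in a short window and say nothing of the sequence under summits elsewhere, which was not used here.

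The 65 other genes of the cAMP pathway were counted in the same way. Their list too was chosen with earlier results of these data known. At 0 h, 9 of 65 had a replicated region in the gene or within 50 kb, or 13.8%, beside the 8.75% of coding genes given above. At 6 h, 51 of 65 had one, or 78.5%, beside 68.8%. A peak in either 0 h library was present at 28 of 65, or 43.1%, beside 28.6%. With the window of 10 kb the 0 h count was 3, beside 4.1% of protein-coding genes, and without 0 h replicate 1 it was 28, beside 28.2%. With 948 peaks per library the counts were 8 at 0 h and 9 at 6 h, beside 6.41% and 6.85%. A promoter window was touched by a replicated region at 2 of 51 genes with a window at 0 h (3.92%, beside 1.43%) and at 22 of 51 at 6 h (43.1%, beside 37.9%).

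By role, all 10 A-kinase anchoring proteins, which tether protein kinase A, and all 6 CREB partners had a replicated region at 6 h. So did both EPAC exchange factors, 11 of 14 G proteins and adenylyl cyclases, 9 of 13 other phosphodiesterases, 5 of 7 protein kinase A subunits and inhibitors, 4 of 5 arrestins and receptor kinases, and 4 of 8 other RGS genes. At 0 h the replicated regions were at Gnai2, Adcy6, Prkaca, Prkar2a, Pde4c, Pde8a, Pde8b, Crebbp and Rapgef4. Only at Prkaca and Pde8a was the strongest of these nearest to the gene itself. Prkaca, the catalytic subunit alpha of protein kinase A, had it 201 bp from the gene, with a fold of 6.90 and 10.1 at 0 h (chr8:83972616-83972988). Pde8a, a cAMP-specific phosphodiesterase, had it 98 bp from the gene, with a fold of 8.67 and 14.7 at 0 h (chr7:81212325-81213697). The Pde8a region was at 29.4 and 41.3 at 6 h.

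The highest-ranking 6 h regions of this list were in the windows of Akap5, Rapgef4, Pde4c, Pde8a and Crebbp. The one in the window of Akap5 had a fold of 45.5 and 60.0 at 6 h and lay inside Zbtb1, 35911 bp away. Those of Rapgef4 and Pde4c lay inside Map3k20 and Pik3r2, with a fold of 31.1 and 50.8 for Rapgef4 and of 31.7 and 43.1 for Pde4c. The Crebbp region, 265 bp from that coactivator gene, had 29.0 and 35.7. The list also held 6 genes with no peak in any library, among them Adcy8, Pde1c, Pde3a, Pkib and Rgs4.

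**Figure D4:**
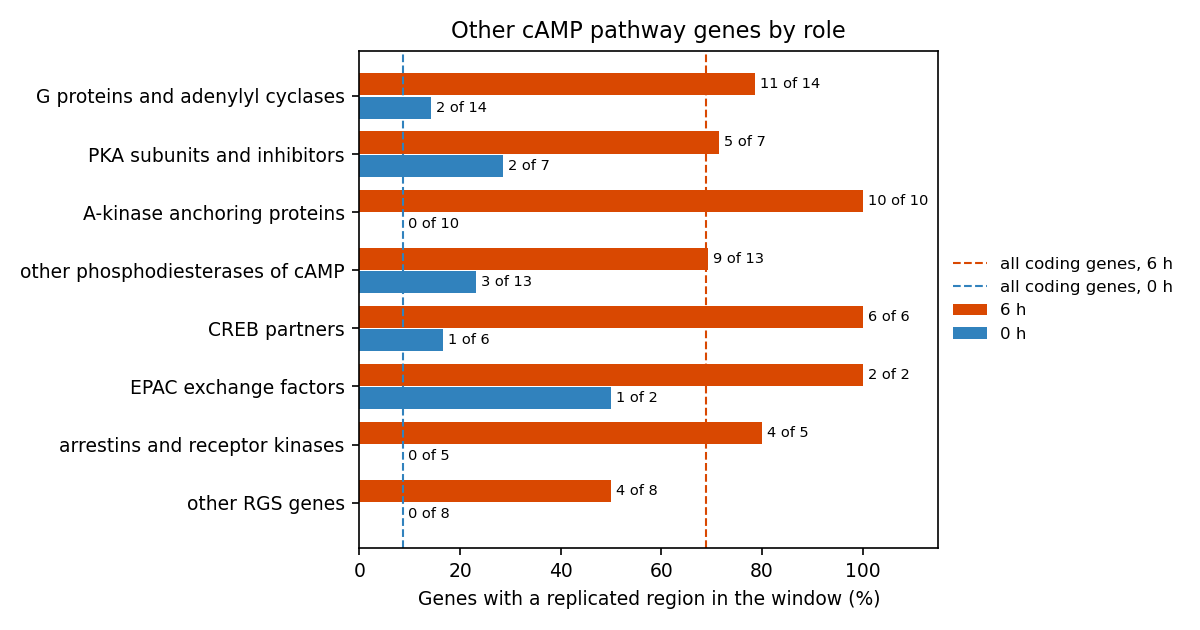
Share of the 65 other pathway genes with a replicated RUNX1 region in the gene or within 50 kb (horizontal axis, percent), by role (vertical axis), at 0 h (blue) and 6 h (orange), with counts beside the bars. Dashed lines give the share of all protein-coding genes, 8.75% at 0 h and 68.8% at 6 h, and all 10 A-kinase anchoring proteins had a region at 6 h.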

How the data were processed

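RUNX1 ChIP-seq was measured in 4 libraries with single-end reads of 75 nt, as the labels state. Per the submitters' processing notes, Bowtie2 2.2.5, MACS2 (version not given in the sources used here) and the build mm10 were used. The files hold 1 peak list per library, and the labels give 1 pooled input for each time point. The deposited lists give a fold enrichment (a ratio to the local background) and the −log10 of the p-value and q-value of each peak, all by the authors, with the summit offset. mm10 is the same assembly as GRCm38, so the files' coordinates were used with RefSeq on GRCm38.p6, counted from 1. All 10 genes and all 65 pathway genes matched by symbol.

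Peaks sharing at least 1 bp were merged. In a merged region, the highest fold of each library is given. Percentiles are ranks of fold within a list, and are not comparable between lists of unlike length. The pileup was solved from fold and −log10 p under the Poisson model, with a misfit of at most 0.005, for 109 of 109 peaks. Shares have exact Clopper-Pearson 95% intervals (counting error only). Time points were compared by exact permutation over libraries. The functions were tested on simulated data. Python 3.11.15, pandas 2.3.3 and scipy 1.17.1 were used.

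All 10 genes were named. Of the other pathway genes, those named have a replicated 0 h region, are among the 5 with the highest mean percentile at 6 h, or are the first 5 by alphabet with no peak. The genes and lists were chosen with earlier results of these data known. Inputs entered only through the peak calls. Alternatives were windows of 10 and 100 kb, a −log10 q of at least 20, 948 peaks per library, other overlap rules, the replicate block and each library left out.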

Additional observations from a re-analysis of the deposited data

How the results depend on the processing

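The log2 difference in peak number at the 10 genes kept its sign under each setting run, from 0.29 with equal numbers of 948 peaks per library to 4.29 with a −log10 q of at least 20, and from 2.38 to 4.55 without 1 library. The difference in the share of the lists was −0.1216 and −0.0906 percentage points with windows of 100 and 10 kb and −0.0482 with the −log10 q limit. In these 3 settings, and also without 0 h replicate 1 or without 6 h replicate 2, the time points did not overlap. The difference in share was −0.0839 to −0.0078 without 1 library, and reversed to 0.0527 with equal numbers of peaks. At 0 h, the genes with a replicated region numbered 1 and the regions 1, both with the −log10 q limit and with an overlap of 50% of both intervals. The regions at 0 h numbered 4 with the window of 100 kb. The other pathway genes with a 0 h region numbered 3 with the window of 10 kb and 5 with the −log10 q limit. With equal numbers of peaks, 3 genes (Lhcgr, Crem and Rgs2), 3 regions and 9 other pathway genes were left at 6 h, and 2, 2 and 8 at 0 h. Without 1 library the 0 h counts were 2 to 7 genes, 2 to 9 regions and 9 to 28 other pathway genes, and the 6 h regions numbered 35 to 63, the higher values coming without replicate 1. With the replicate block (replicate 1 paired with 1 and 2 with 2), the differences were the same 3.47 and −0.0459, with an exact sign-flip p of 0.5 for each, the smallest that 2 pairs can give. The numbers were not taken to pair the libraries: the difference between replicates per coding gene correlated at −0.029 between the time points. No setting gave a p under 0.05, which 2 libraries against 2 cannot reach. A site missing from a 0 h list was below the calling limit and may still be bound.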

Other observations

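Beyond the 50 kb limit, 11 replicated 6 h regions lay between 50 and 100 kb from one of the 10 genes. The closest, 62071 bp from Prkar2b at chr12:32123465-32123975, had a fold of 6.19 and 15.2 at 6 h and was also called in both 0 h libraries. Pik3cg was the coding gene nearest to it. A region 72681 bp from Lhcgr, at chr17:88864150-88865479, had a fold of 20.8 and 36.8 at 6 h and was also called in both 0 h libraries, and Lhcgr was its nearest coding gene. Between Lhcgr and Fshr lay 2 more such regions, with a fold of 14.6 and 26.7 and of 16.8 and 41.4, and neither had a 0 h peak. A region 82194 bp from Rgs2, at chr1:144086177-144086722, was nearer to Rgs13 and had a fold of 24.2 and 39.3 at 6 h with no 0 h peak.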
